A study of Mus musculus with 8 samples.

Results

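Liver cells that carried a high surface signal of F4/80, a macrophage antigen, and no β-galactosidase (b-gal-) signal were compared with hepatocytes from the same kind of injured liver. The comparison rests on 4 of the 8 libraries of the study, 2 of b-gal- F4/80high cells and 2 of hepatocytes, chosen by their group labels. All mice were Lgr5-LacZ transgenic on a mixed C57BL/6 and CBA background, so both groups carried the reporter. All received 1 injection of carbon tetrachloride (CCl4, 1 µl per g of body weight, in rapeseed oil, into the peritoneum), and livers were taken 6 days later. Age was 10 to 12 weeks in the sample labels and 7 to 12 weeks in the series text. Each library pooled cells of 2 mice, and no library of uninjured liver was part of the comparison. The b-gal+ F4/80high and EpCAM-positive groups, with 2 libraries each, entered only the estimate of the spread, the scaling and the filter on low counts, and b-gal+ values are given where stated.

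Handling differed between the groups and cannot be told apart from cell type. Hepatocytes were taken as the pellet of slow centrifugation. The b-gal- cells came from the supernatant and went through red cell lysis, loading with a fluorogenic β-galactosidase substrate, antibody staining and sorting. F4/80 is the product of Adgre1. The labels name no sort that removed endothelial cells, monocytes or neutrophils from the F4/80high gate, and no sort that removed other cells from the hepatocyte pellet.

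The liver sinusoid is lined by fenestrated endothelial cells, which take up waste proteins through scavenger receptors and send Wnt and BMP ligands to the hepatocytes behind them. Kupffer cells, the resident macrophages, sit in the same space, and monocytes enter it after injury. Hepatocytes make the plasma proteins, urea and bile acids and break down drugs, and their gene programs differ between the portal and the central end of the lobule. CCl4 kills pericentral hepatocytes, in which P450 enzymes convert it to a toxic radical.

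Recovered reads numbered 22072131 and 16948568 in b-gal- replicates 1 and 2, and 24549242 and 23760121 in hepatocyte replicates 1 and 2. Between 14432 and 15703 genes were detected per library. Before TMM scaling, 3 reads corresponded to 0.122 to 0.177 CPM, the number of reads per 1000000 reads of the library. After it, 1 read was 0.0761 CPM in hepatocyte replicate 1 and 0.0807 CPM in hepatocyte replicate 2. Levels are CPM after TMM scaling, which had factors of 1.21 and 1.22 for the b-gal- libraries and 0.535 and 0.521 for the hepatocyte libraries. Differences are log2(CPM + 0.5) of b-gal- minus hepatocytes from limma, with the standard error (SE) of the fit. They understate the change of genes near 0. A gene is said to be higher, lower or called only where the p-value adjusted over 14404 genes tested was under 0.05. Nothing in the labels says that the 2 pools of a group came from separate experiments, so the p-values measure only the spread between these libraries. In bulk RNA, fewer cells of a type and less RNA per cell cannot be told apart.

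The b-gal- cells and the hepatocytes differed in most of the genes measured. Of 14404 genes tested, 4647 (32.3%) were higher and 4396 (30.5%) were lower in b-gal- cells, 62.8% in all. The 4 libraries were apart, whatever the test, with b-gal- above in 46.1% of genes and below in 39.9%. Lack of overlap between the groups, stated for single genes below, was therefore the common case. The median difference over all genes tested was 0.13. The split depended on scaling: with total reads in place of TMM factors the median moved up by 0.95 and 78.8% of the calls were higher, and on the deposited scale it moved up by 1.005 and 79.7% were higher, against 51.4% with TMM. Under all 4 scalings 4508 genes (31.3%) were called higher and 2177 (15.1%) lower. Calls named below that were missed under 1 or more of these scalings are marked as such. Counts of called list members below are to be read against the 32.3% higher and 30.5% lower of all genes tested.

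The endothelial genes of the sinusoid moved together. All 18 sinusoidal endothelial markers rose in b-gal- cells, with a median difference of 4.86 against 0.13 over all genes. Kdr, the VEGF receptor 2, measured 2999 and 3379.6 CPM in the b-gal- libraries and 59.5 and 162 CPM in the hepatocyte libraries (log2 difference 5.01 ± 0.47 (SE), adjusted p = 1.14e-04). Stab2, the hyaluronan-clearing scavenger receptor stabilin-2, measured 3613 and 4136 CPM in the b-gal- libraries and 73.3 and 198 CPM in the hepatocyte libraries (log2 difference 5.00 ± 0.47 (SE), adjusted p = 1.13e-04). For both genes the b-gal- libraries lay close together and far above the hepatocyte libraries, and hepatocyte replicate 2 was above hepatocyte replicate 1. Without hepatocyte replicate 1 the difference was 4.29 for Kdr and 4.28 for Stab2, and without hepatocyte replicate 2 it was 5.73 and 5.71. Lyve1, a hyaluronan receptor of sinusoidal and lymphatic endothelium, had 709 and 405 against 16.9 and 16.6 CPM (difference 4.96). The lectin Clec4g had 1580.1 and 2298 against 45.8 and 103 CPM (difference 4.79), and Fc receptor Fcgr2b, which clears immune complexes, had 1714 and 2033 against 51.5 and 90.8 CPM (difference 4.76). The differences of the 18 genes ranged from 4.55 to 5.24. Summed over the list, the level was 34454 and 41683 CPM in the b-gal- libraries and 852 and 1887 CPM in the hepatocyte libraries. The hepatocyte sums were 2.24% and 4.96% of the b-gal- mean.

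**Figure D1:**
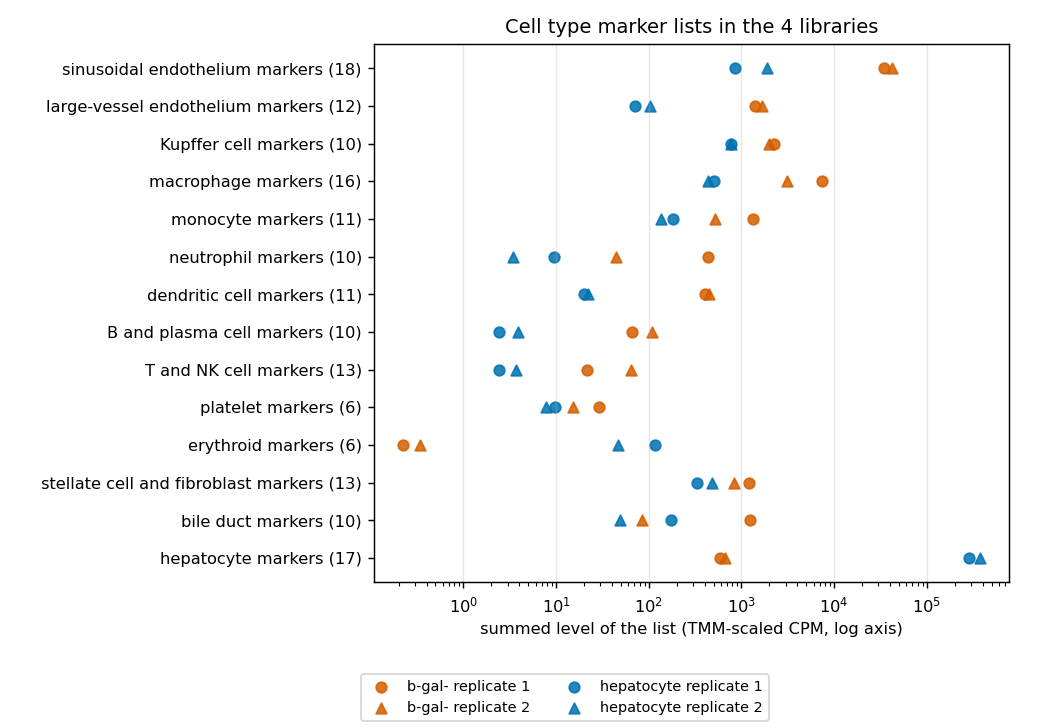
Summed level of each cell type marker list (number of genes in brackets) in the 4 libraries, in TMM-scaled CPM on a log axis, with orange for b-gal- cells, blue for hepatocytes, circles for replicate 1 and triangles for replicate 2. The sinusoidal endothelium list sits at 34454 and 41683 CPM in the b-gal- libraries and at 852 and 1887 CPM in the hepatocyte libraries, and the hepatocyte list lies the other way round.

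Markers of large vessels rose too, with 11 of 12 tested members higher (median 4.15). Thbd, thrombomodulin, had 204 and 256 against 5.56 and 7.83 CPM (difference 5.01), and the gap junction gene Gja4 had 168 and 266 against 5.25 and 10.98 CPM (difference 4.71). Vwf, the von Willebrand factor, had 27.4 and 33.0 against 3.12 and 2.66 CPM (difference 3.18). Per kilobase of exon, Stab2 reached 442 CPM in b-gal- cells and Kdr 353 CPM, against 67.2 CPM for Adgre1, 146 CPM for the macrophage growth factor receptor Csf1r and 34.8 CPM for the monocyte chemokine receptor Ccr2. The label F4/80high is used here as the name of a gate and not of a single cell type.

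Macrophage genes rose as well, at a level that differed between the b-gal- libraries. Of 16 markers tested, 15 were higher, with a median of 3.72, and their summed level was 7439 and 3139.9 CPM in the b-gal- libraries and 501 and 437 CPM in the hepatocyte libraries. Adgre1 itself measured 303 and 132 CPM in the b-gal- libraries and 20.7 and 14.1 CPM in the hepatocyte libraries (log2 difference 3.51 ± 0.96 (SE), adjusted p = 0.0156). The groups did not overlap, but the call did not hold without b-gal- replicate 1 (adjusted p = 0.0834), hepatocyte replicate 1 (0.0659) or hepatocyte replicate 2 (0.0978), and the difference was 2.92 without b-gal- replicate 1 and 4.11 without b-gal- replicate 2. Csf1r had 1113 and 576 against 59.1 and 46.2 CPM (difference 3.93, adjusted p = 6.55e-04). Mertk, a receptor for the uptake of dying cells, was alike in both b-gal- libraries at 355 and 432 CPM against 28.3 and 42.8 CPM in hepatocytes (difference 3.47).

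Kupffer cell markers were higher in b-gal- cells for 7 of 10 members, with a median of 2.58. With only the 4 libraries compared, and with the replicate block over 8 or over 4 libraries, 9 were higher. The count of 7 became 1 without b-gal- replicate 1, 4 without b-gal- replicate 2, 3 without hepatocyte replicate 1 and 2 without hepatocyte replicate 2. Timd4, a phosphatidylserine receptor of resident macrophages, measured 62.0 and 63.0 CPM in the b-gal- libraries and 8.15 and 6.86 CPM in the hepatocyte libraries (log2 difference 2.98 ± 0.61 (SE), adjusted p = 0.00456). Clec4f, the lectin that defines mouse Kupffer cells, measured 425 and 559 CPM in the b-gal- libraries and 88.2 and 73.5 CPM in the hepatocyte libraries (log2 difference 2.59 ± 0.79 (SE), adjusted p = 0.0248). Its call was lost without any 1 of the 4 libraries compared (adjusted p from 0.064 without b-gal- replicate 1 to 0.123 without hepatocyte replicate 2), as was that of Vsig4, a complement receptor with 109 and 125 against 22.1 and 16.7 CPM (from 0.0724 to 0.129 for the same libraries). Nr1h3, the LXRα gene that hepatocytes also express, was the 1 member called lower, at 55.5 and 35.7 against 229.9 and 183 CPM (difference -2.19, not called under every scaling). The summed Kupffer list in the hepatocyte libraries was 36.44% and 36.25% of the b-gal- mean, and those hepatocyte sums include Nr1h3 and the iron exporter Slc40a1. Slc40a1 was higher at 716 and 621 against 284 and 412 CPM, a call that fell away without b-gal- replicate 1 (adjusted p = 0.147), b-gal- replicate 2 (0.0895) or hepatocyte replicate 1 (0.201).

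Monocyte markers were higher for 9 of 11 members (median 4.33). Ccr2 measured 368 and 102 CPM in the b-gal- libraries and 4.49 and 1.86 CPM in the hepatocyte libraries (log2 difference 5.82 ± 0.88 (SE), adjusted p = 0.00109). Both b-gal- libraries were above both hepatocyte libraries, with replicate 1 the higher of each pair, and the difference was 4.90 without b-gal- replicate 1 and 6.75 without b-gal- replicate 2. Cx3cr1, the fractalkine receptor, had 136 and 38.9 against 2.28 and 0.807 CPM (difference 5.26), which became 4.37 without b-gal- replicate 1 and 6.16 without b-gal- replicate 2. Neutrophil markers were called higher for 3 of 10 members, Csf3r, Mmp9 and Cxcr2, a share near the 32.3% of all genes tested. The count was 1 without b-gal- replicate 1, 5 without b-gal- replicate 2, 1 without hepatocyte replicate 1 and 1 without hepatocyte replicate 2, and DESeq2 called 8. With the replicate number as a block it was 9 over 8 libraries and 10 over the 4 compared. Csf3r, the G-CSF receptor, had 60.9 and 20.3 against 1.37 and 1.05 CPM (difference 4.39, and 3.61 without b-gal- replicate 1 or 5.17 without b-gal- replicate 2). The calls of Mmp9 (35.9 and 6.43 against 0.761 and 0.888 CPM) and Cxcr2 (11.6 and 1.55 against 0.152 and 0.162 CPM) did not hold without b-gal- replicate 1 (adjusted p = 0.0779 and 0.225) and without either hepatocyte library (0.0807 and 0.0714 for Mmp9, 0.154 and 0.149 for Cxcr2), and that of Cxcr2 also without either b-gal+ library (0.0533 and 0.0528). Without b-gal- replicate 2 the differences were 4.78 and 4.21.

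Among the other lists, dendritic cell markers were higher for 8 of 11 members, B and plasma cell markers for 10 of 10, and T and NK cell markers for 9 of 13. Over all genes tested the share higher was 32.3%. The T and NK count was 12 without b-gal- replicate 1, 3 without b-gal- replicate 2, 3 without hepatocyte replicate 1 and 4 without hepatocyte replicate 2. The lymphocyte sums were low, at 66.3 and 108 CPM in the b-gal- libraries and 2.44 and 3.88 CPM in the hepatocyte libraries for B and plasma cells and 21.4 and 65.1 CPM in the b-gal- libraries and 2.44 and 3.71 CPM in the hepatocyte libraries for T and NK cells. Stellate cell and fibroblast markers were called for 2 of 13 members, both higher, a share below the 32.3% of all genes tested. They were desmin (Des, 9.87 and 12.6 against 3.20 and 4.20 CPM) and Rgs5 (56.8 and 66.4 against 18.7 and 27.5 CPM). The count of 2 became 0 without hepatocyte replicate 1, 7 without either b-gal+ library, 5 and 11 with the replicate block over 8 and 4 libraries and 10 by total reads. The Des call did not hold without b-gal- replicate 2 (adjusted p = 0.0627) or hepatocyte replicate 1 (0.0566), and the Rgs5 call without hepatocyte replicate 1 (0.0596). Bile duct markers were lower for 2 of 10 members, a share below the 30.5% of all genes tested. Among them was Sox9 (0.187 and 1.16 against 21.2 and 7.91 CPM). No bile duct marker was higher with limma and TMM scaling. DESeq2 called 2 higher, edgeR 1, and the replicate block 1 and 3 over 8 and 4 libraries. The Sox9 call did not hold without b-gal- replicate 1 (adjusted p = 0.0658) or hepatocyte replicate 1 (0.0917), and its difference was -4.30 without b-gal- replicate 2 and -4.35 without hepatocyte replicate 2. Of 4 platelet markers tested, Itga2b was higher (19.0 and 11.9 against 5.10 and 7.27 CPM), a call that fell away without b-gal- replicate 1 (adjusted p = 0.168), hepatocyte replicate 1 (0.147) or hepatocyte replicate 2 (0.0543). Alas2, the erythroid aminolevulinate synthase of heme synthesis, was lower, with 0.224 and 0.338 against 118 and 46.2 CPM (difference -6.58). The Alas2 difference was -5.90 without hepatocyte replicate 1 and -7.25 without hepatocyte replicate 2. The other 5 erythroid markers, 4 globins among them, were listed at 0 reads in these 4 libraries. The part of these cells in the results on other genes was not tested.

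Hepatocyte markers fell together in b-gal- cells. All 17 were lower, with a median of -9.82, and their sum was 581 and 669 CPM in the b-gal- libraries and 283100.0 and 374750.0 CPM in the hepatocyte libraries. Albumin (Alb) measured 135 and 331 CPM in the b-gal- libraries and 130390.0 and 205150.0 CPM in the hepatocyte libraries (log2 difference -9.60 ± 1.02 (SE), adjusted p = 1.97e-04). The groups were separated by a wide gap, the b-gal- sums of the list being 0.177% and 0.203% of the hepatocyte mean. The Alb difference was -8.95 without b-gal- replicate 1 and -10.24 without b-gal- replicate 2. The fibrinogen chain gene Fgb had 23.8 and 23.3 against 21481 and 13719 CPM (difference -9.48). Asgr1, a subunit of the asialoglycoprotein receptor, had 0.785 and 1.06 against 1144 and 1126 CPM (difference -9.65).

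The highest differences of the whole comparison included AP-1, heat shock and inflammatory genes, and the lowest were metabolic and transporter genes. Above a mean level of 20 CPM, the 10 highest differences were those of Fosb, Cxcl2, Hspa1a, Klf4, Ptgs2, Itgam, Clec4e, Tnf, Thbs1 and Atf3. Fosb, a subunit of the AP-1 transcription factor, led with 923 and 1057 CPM in the b-gal- libraries and 0.533 and 0.565 CPM in the hepatocyte libraries (log2 difference 9.88 ± 0.31 (SE), adjusted p = 7.44e-06). Klf4, a zinc finger factor of endothelium and monocytes, measured 312 and 342 CPM in the b-gal- libraries and 2.21 and 3.23 CPM in the hepatocyte libraries (log2 difference 6.69 ± 0.20 (SE), adjusted p = 7.44e-06). In both, the b-gal- libraries nearly coincided and the hepatocyte libraries were near 0. Itgam, the CD11b integrin chain of myeloid cells, differed between replicates, at 706 and 105.3 against 5.94 and 0.969 CPM (difference 6.47). Its difference was 5.10 without b-gal- replicate 1, 7.84 without b-gal- replicate 2, 7.54 without hepatocyte replicate 1 and 5.41 without hepatocyte replicate 2.

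The myeloid genes of that set leaned on b-gal- replicate 1. The chemokine gene Cxcl2 had 387 and 80.2 against 0.685 and 0.162 CPM, and its difference of 7.64 was 6.51 without b-gal- replicate 1 and 8.77 without b-gal- replicate 2. For the lectin Clec4e the difference of 6.44 was 4.88 without b-gal- replicate 1 and 8.004 without b-gal- replicate 2, and 7.06 and 5.82 without hepatocyte replicates 1 and 2. The matrix gene Thbs1 (966 and 75.6 against 6.09 and 1.78 CPM) was no longer called without b-gal- replicate 1 (adjusted p = 0.0562) and without hepatocyte replicate 2 (0.0836), and its difference was 7.96 without b-gal- replicate 2 and 6.90 without hepatocyte replicate 1. The heat shock gene Hspa1a, which has a near-identical copy in Hspa1b, had 159 and 61.3 against 0.381 and 0.484 CPM (difference 6.73, and 6.05 without b-gal- replicate 1 or 7.42 without b-gal- replicate 2). Atf3, a stress-induced factor, had 309 and 226 against 6.24 and 1.94 CPM (difference 6.03, and 6.76 without hepatocyte replicate 1 or 5.29 without hepatocyte replicate 2). Tnf and Ptgs2, the cyclooxygenase-2 gene, had 1 read each over both hepatocyte libraries. Their ratios of reads per scaled library were 1277 (95% exact interval 229 to 50450.0) for Tnf and 1938 (348 to 76570.0) for Ptgs2, intervals that cover counting error only. The fitted differences moved with the b-gal- library left out, to 5.57 and 5.16 without replicate 1 and 7.02 and 7.81 without replicate 2.

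The 10 lowest were metabolic and transporter genes of hepatocytes: Cps1, Pck1, Slc38a3, Tat, Cyp3a11, Slc27a2, Cml2, Abcb11, Cyp2e1 and Ftcd. Cps1, the first enzyme of the urea cycle, measured 0.935 and 1.21 CPM in the b-gal- libraries and 10416 and 15837 CPM in the hepatocyte libraries (log2 difference -13.00 ± 1.23 (SE), adjusted p = 1.13e-04). Pck1, the gluconeogenic PEP carboxykinase, measured 2.28 and 3.14 CPM in the b-gal- libraries and 7265 and 6728 CPM in the hepatocyte libraries (log2 difference -11.10 ± 0.78 (SE), adjusted p = 3.18e-05). Slc38a3, a glutamine transporter, had 0.972 and 2.51 against 4157 and 4569 CPM and Tat, the tyrosine aminotransferase, had 1.76 and 2.17 against 5380.2 and 4723 CPM. In all 4 genes every b-gal- library was under 4 CPM and every hepatocyte library above 1000 CPM.

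**Figure D2:**
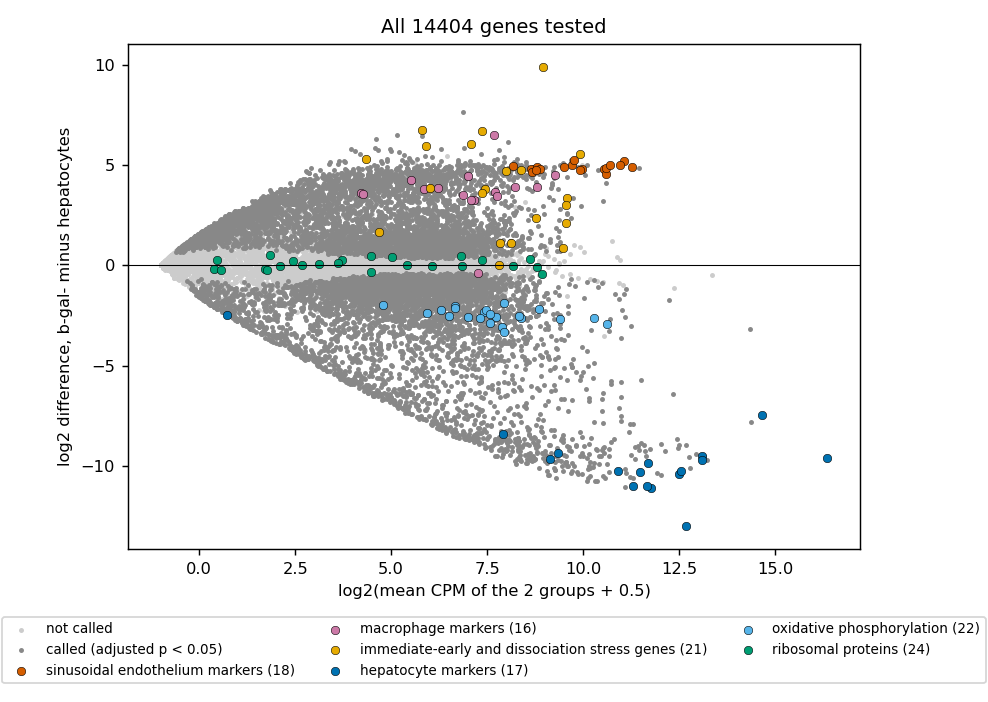
Each point is 1 of the 14404 genes tested, with the log2 difference of b-gal- minus hepatocytes against log2 of the mean CPM of both groups + 0.5, and 6 gene lists in colour. Sinusoidal endothelial genes form a tight band between 4.55 and 5.24, hepatocyte markers lie at a median of -9.82, and ribosomal protein genes lie at a median of 0.02.

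Transcription factors separated along the same line. Of 22 endothelial factors tested, 20 were higher and 1 lower (median 4.33). Ets1 had 1059 and 1268 against 44.1 and 70.4 CPM (difference 4.37), Elk3, a repressor of the ETS family, had 547 and 696 against 15.1 and 30.0 CPM (difference 4.82), and Gata4, a factor required for sinusoidal endothelium, had 379.5 and 508 against 26.2 and 44.3 CPM (difference 3.67). Flow-responsive Klf2 had 589.8 and 706 against 21.3 and 25.8 CPM (difference 4.75). Hhex, which hepatocytes share, was the 1 lower factor at 42.3 and 41.7 against 99.2 and 107 CPM. That call was not made under every scaling and was lost without any 1 of the 4 libraries compared (adjusted p from 0.105 without b-gal- replicate 1 to 0.145 without hepatocyte replicate 2) or without either b-gal+ library (0.0593 and 0.0586). Of 17 hepatocyte factors 16 were lower and none higher (median -6.39), 15 of them under all 4 scalings. Hnf4a, the nuclear receptor that maintains hepatocyte identity, had 1.46 and 1.498 against 1384 and 1203 CPM (difference -9.35), and Ppara, the regulator of fat oxidation, had 0.673 and 0.338 against 319 and 328 CPM (difference -8.35). Cebpa, also made by myeloid cells, had 134 and 78.3 against 831 and 849 CPM (difference -3.03). Cebpb was not called (209 and 84.6 against 432 and 265 CPM, adjusted p = 0.0624), but passed as lower without either EpCAM-positive library (0.0469 and 0.041) or b-gal- replicate 1 (0.0221) and with the replicate block (0.00611 over 8 libraries).

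Promoters of genes on either side are shown to place short motifs whose shares are given for both directions. The windows are the 250 bases before the RefSeq start of transcription on GRCm38.p6, given 5′ to 3′ on the strand of the gene, and 10956 of the 14404 genes tested had one. Capitals mark GTTAAT, the shared core of binding sites of HNF1, in Alb (chromosome 5, 90460620 to 90460869, plus strand), Fgb (chromosome 3, 83049864 to 83050113, minus strand) and Pck1 (chromosome 2, 173152823 to 173153072, plus strand). They mark CAGGAAG, an ETS family motif, in Stab1 (chromosome 14, 31168642 to 31168891, minus strand), Elk3 (chromosome 10, 93311160 to 93311409, minus strand) and Egfl7 (chromosome 2, 26580833 to 26581082, plus strand). Both motifs were searched on both strands, so the reverse complement is capitalised in Fgb, Pck1 and once in Egfl7.
Alb: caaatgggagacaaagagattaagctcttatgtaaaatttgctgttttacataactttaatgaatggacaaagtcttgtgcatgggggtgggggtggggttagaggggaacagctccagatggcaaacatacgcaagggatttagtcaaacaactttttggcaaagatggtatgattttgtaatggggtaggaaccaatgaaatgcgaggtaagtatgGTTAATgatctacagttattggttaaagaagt
Fgb: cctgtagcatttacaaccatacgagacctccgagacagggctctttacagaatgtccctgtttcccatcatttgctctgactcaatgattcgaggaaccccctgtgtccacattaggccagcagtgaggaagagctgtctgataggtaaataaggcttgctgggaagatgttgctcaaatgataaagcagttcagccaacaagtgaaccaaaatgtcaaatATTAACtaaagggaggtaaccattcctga
Pck1: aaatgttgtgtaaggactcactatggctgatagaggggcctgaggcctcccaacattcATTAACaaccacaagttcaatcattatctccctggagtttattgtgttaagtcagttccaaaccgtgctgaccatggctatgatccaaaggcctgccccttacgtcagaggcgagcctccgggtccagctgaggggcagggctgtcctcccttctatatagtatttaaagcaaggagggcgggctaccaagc
Stab1: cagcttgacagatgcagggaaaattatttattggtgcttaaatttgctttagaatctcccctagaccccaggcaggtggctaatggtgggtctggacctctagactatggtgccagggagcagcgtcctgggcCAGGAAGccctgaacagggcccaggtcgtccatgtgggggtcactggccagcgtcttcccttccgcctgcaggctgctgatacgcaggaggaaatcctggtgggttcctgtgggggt
Elk3: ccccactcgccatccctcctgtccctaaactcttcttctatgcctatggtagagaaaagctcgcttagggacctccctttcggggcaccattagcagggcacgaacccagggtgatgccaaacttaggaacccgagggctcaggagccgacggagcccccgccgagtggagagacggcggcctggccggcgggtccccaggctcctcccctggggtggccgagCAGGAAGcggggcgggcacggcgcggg
Egfl7: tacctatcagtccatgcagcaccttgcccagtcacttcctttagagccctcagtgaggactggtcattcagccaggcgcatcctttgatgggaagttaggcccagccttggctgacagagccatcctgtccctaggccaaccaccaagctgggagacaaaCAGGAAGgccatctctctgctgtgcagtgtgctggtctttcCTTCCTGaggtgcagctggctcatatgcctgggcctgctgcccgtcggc

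GTTAAT was present in 12.25% of the windows of called genes at least 16-fold lower in b-gal- cells (93 of 759) and in 2.25% of those at least 16-fold higher (12 of 533). Its share was 4.43% over all genes tested and 6.52% over all 27025 windows. CAGGAAG was present in 15.8% of the windows of genes at least 16-fold higher (84 of 533), in 10.5% of those at least 16-fold lower, in 10.0% of all genes tested and in 10.5% of all windows. The shares are descriptions without a test, a match is not a bound site, and the 6 genes were chosen after their motifs were seen. In the 4 libraries Stab1, stabilin-1, had 3786 and 4606 against 67.3 and 188 CPM (difference 5.21, and 4.47 without hepatocyte replicate 1 or 5.94 without hepatocyte replicate 2), and Egfl7, a secreted vessel factor, had 637 and 927 against 26.1 and 34.6 CPM.

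Most endothelial junction and receptor genes were higher in b-gal- cells. Of 15 junction and caveola genes, 11 were higher and 4 were not called (median 4.37). Cdh5, VE-cadherin, had 1336 and 1449.9 against 32.7 and 65.0 CPM (difference 4.90), and Cldn5, a tight junction claudin, had 277 and 407 against 10.1 and 17.5 CPM (difference 4.603). Of 13 tested genes of the VEGF and angiopoietin pathway, 9 were higher, 1 was lower and 3 were not called (median 4.41). Vegfa and the VEGF receptor genes went opposite ways. Vegfa, the ligand, measured 51.2 and 24.5 CPM in the b-gal- libraries and 230.4 and 333 CPM in the hepatocyte libraries (log2 difference -2.95 ± 0.68 (SE), adjusted p = 0.00757). Its call was lost without hepatocyte replicate 2 (adjusted p = 0.0622) and was not made under every scaling. Receptors Flt1 (439 and 564 against 10.9 and 27.6 CPM) and Flt4 (1724 and 1624 against 28.2 and 68.2 CPM) were higher with differences of 4.80 and 5.24, which without hepatocyte replicate 1 were 4.15 and 4.61 and without hepatocyte replicate 2 5.45 and 5.86.

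The coreceptor Nrp1 had 1588 and 1916 against 228 and 228 CPM (difference 2.93), and Nrp2 had 776 and 866 against 27.6 and 72.8 CPM (difference 4.18, and 3.49 without hepatocyte replicate 1 or 4.87 without hepatocyte replicate 2). Angpt2, the antagonist ligand of TIE2, had 34.7 and 29.3 against 0.914 and 1.13 CPM (difference 4.41). The TIE2 gene Tek had 679.6 and 863 against 16.5 and 43.7 CPM and the phosphatase Ptprb, which restrains TIE2, had 4153 and 5377 against 92.5 and 270.4 CPM. Their differences of 4.80 and 4.90 were 4.12 and 4.13 without hepatocyte replicate 1 and 5.49 and 5.67 without hepatocyte replicate 2. The orphan receptor gene Tie1 had 758 and 949 against 19.8 and 40.5 CPM (difference 4.88). Vegfb (23.2 and 26.2 against 20.02 and 17.2 CPM), Vegfc (10.8 and 7.25 against 6.78 and 6.46 CPM) and Angpt1 (1.38 and 1.59 against 0.533 and 0.646 CPM) were not called (adjusted p = 0.137, 0.503 and 0.285, and 0.0319 for Angpt1 with the replicate block over 4 libraries), and Pgf had too few reads to be tested.

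In the BMP to hepcidin axis the ligands Bmp2 and Bmp6 were higher in b-gal- cells and hemojuvelin, transferrin receptor 2 and hepcidin were lower. Of 19 members 9 were higher and 7 lower (median 0.46), against 32.3% and 30.5% of all genes tested. The share of lower members was near that of all genes. By total reads 12 were higher and 6 lower. Bmp2 measured 1078 and 1675 CPM in the b-gal- libraries and 26.9 and 57.8 CPM in the hepatocyte libraries (log2 difference 5.07 ± 0.38 (SE), adjusted p = 4.04e-05). Bmp6 measured 116 and 195 CPM in the b-gal- libraries and 5.33 and 9.61 CPM in the hepatocyte libraries (log2 difference 4.29 ± 0.36 (SE), adjusted p = 6.82e-05). Both ligands, which signal iron status to hepatocytes, were higher in each b-gal- library than in each hepatocyte library.

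On the receiving side, Hfe2, hemojuvelin, had 0.0748 and 0.29 against 213 and 254 CPM (difference -8.43). Tfr2, transferrin receptor 2, had 2.17 and 2.90 against 1479.6 and 1549.6 CPM (difference -8.97), and Tmprss6, the protease that cuts hemojuvelin, had 0.823 and 1.69 against 1386 and 1645 CPM (difference -9.79). Hamp, the gene of hepcidin, had 0.711 and 1.40 against 1402 and 1673 CPM (difference -9.98), and its close relative Hamp2 had 0 and 1.01 against 241 and 894 CPM (difference -9.06, and -8.26 without b-gal- replicate 1, -9.86 without b-gal- replicate 2, -10.01 without hepatocyte replicate 1 or -8.12 without hepatocyte replicate 2). Reads of these 2 may be split by the counting. All 5 genes were near 0 in b-gal- cells.

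The receptor genes themselves were mixed. Bmpr1a, a type I receptor, was lower at 6.06 and 6.09 against 80.8 and 77.0 CPM (difference -3.59), while the type I receptor Acvr1 (70.3 and 64.1 against 26.0 and 33.9 CPM, difference 1.16) and the type II receptor Bmpr2 (409 and 421 against 63.4 and 80.7 CPM, difference 2.53) were higher. Acvr2a was not called (61.0 and 41.9 against 51.8 and 69.4 CPM, adjusted p = 0.381), and its sign turned under total reads, on the deposited scale and without b-gal- replicate 2. The feedback inhibitors Smad6 (216 and 243 against 11.9 and 18.5 CPM, difference 3.90) and Smad7 (137 and 153 against 26.1 and 29.2 CPM, difference 2.37) and the BMP target Id1 (40.6 and 39.0 against 7.77 and 10.3 CPM, difference 2.09) were higher. The signal carrier Smad1 was higher by 1.08, at 66.0 and 74.4 against 32.7 and 32.9 CPM. Smad4 was higher by 0.51, at 87.8 and 89.5 against 66.2 and 57.9 CPM, a call lost without either b-gal- library (adjusted p = 0.0612 and 0.0734). Smad5 did not pass (63.8 and 69.2 against 63.3 and 74.6 CPM, adjusted p = 0.833), with a sign that turned with scaling by total reads or the deposited scale and without b-gal- replicate 1 or hepatocyte replicate 2. Neo1, neogenin, was lower at 19.0 and 20.9 against 43.4 and 53.9 CPM with TMM scaling but not under every scaling, and its call was lost without any 1 of the 4 libraries (adjusted p = 0.132, 0.102, 0.102 and 0.175). Hfe did not pass (126 and 127 against 89.0 and 94.7 CPM, adjusted p = 0.131) unless an EpCAM-positive library was left out (0.0208 and 0.0227) or the replicate block was fitted over 4 libraries (0.0224).

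**Figure D3:**
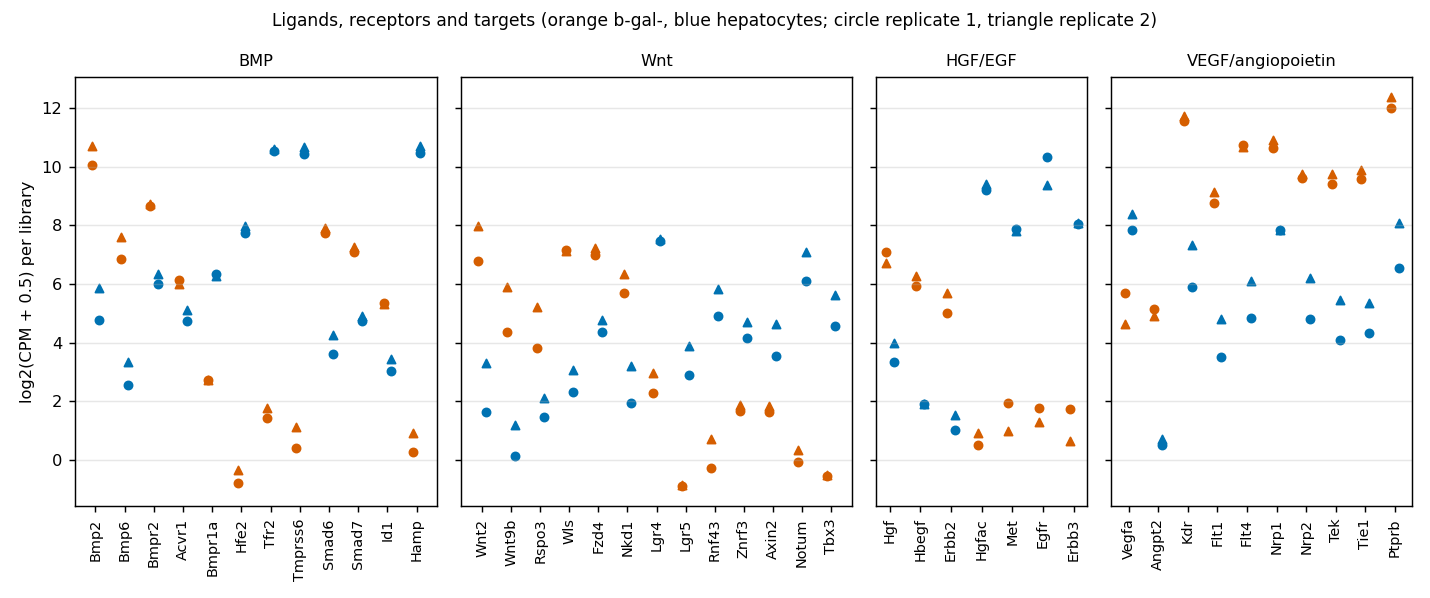
Level of ligands, receptors and targets of 4 pathways per library, as log2(CPM + 0.5), with orange for b-gal- cells, blue for hepatocytes, circles for replicate 1 and triangles for replicate 2. Bmp2, Wnt2 and Hgf lie higher in b-gal- cells, and Hfe2, Tfr2, Hamp, Lgr5, Met and Egfr lie higher in hepatocytes.

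The ligands Wnt2 and Wnt9b were higher in b-gal- cells, and the R-spondin receptors Lgr4 and Lgr5 and several Wnt targets were lower. Of 26 tested members 7 were higher and 9 lower, near the shares of all genes tested of 32.3% and 30.5% (median 0.06); by total reads 10 were higher and 8 lower. Wnt2, an endothelial ligand, measured 110.1 and 253 CPM in the b-gal- libraries and 2.59 and 9.45 CPM in the hepatocyte libraries (log2 difference 4.92 ± 0.62 (SE), adjusted p = 4.6e-04). Wnt9b, which comes from central vein endothelium, measured 20.2 and 59.5 CPM in the b-gal- libraries and 0.609 and 1.78 CPM in the hepatocyte libraries (log2 difference 4.47 ± 0.72 (SE), adjusted p = 0.00149). In both genes b-gal- replicate 2 was the highest library and the groups did not overlap. The Wnt2 difference ranged from 4.07 without hepatocyte replicate 1 to 5.76 without hepatocyte replicate 2, and was 5.51 without b-gal- replicate 1 and 4.32 without b-gal- replicate 2. That of Wnt9b was 5.24 without b-gal- replicate 1 and 3.71 without b-gal- replicate 2.

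Rspo3, an R-spondin that strengthens Wnt signals, had 13.7 and 36.8 against 2.28 and 3.80 CPM (difference 2.73, adjusted p = 0.00783). Its call did not hold without b-gal- replicate 2 (difference 2.04, adjusted p = 0.0514) or hepatocyte replicate 1 (0.0634), and the difference was 3.43 without b-gal- replicate 1. Wls, which carries Wnt proteins to the surface, had 143 and 141 against 4.49 and 7.91 CPM (difference 4.46), and the receptor Fzd4 had 127 and 150.3 against 19.9 and 27.1 CPM (difference 2.55). Nkd1, a feedback inhibitor, had 50.8 and 80.3 against 3.35 and 8.72 CPM (difference 3.43, and 2.80 without hepatocyte replicate 1 or 4.06 without hepatocyte replicate 2). The coreceptor Lrp5 was higher by 0.90, at 335 and 440.2 against 162 and 260.3 CPM, a call lost without either b-gal- library (adjusted p = 0.0501 and 0.169) or hepatocyte replicate 1 (0.195), or without either b-gal+ library (0.054 and 0.0538).

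Lgr4, an R-spondin receptor, measured 4.34 and 7.35 CPM in the b-gal- libraries and 177 and 186 CPM in the hepatocyte libraries (log2 difference -4.88 ± 0.73 (SE), adjusted p = 0.00104). Lgr5, the relative that marks pericentral hepatocytes and drives the reporter, measured 0.0374 and 0.0483 CPM in the b-gal- libraries and 6.93 and 14.1 CPM in the hepatocyte libraries, with 2 reads in all over both b-gal- libraries. The ratio of reads per scaled library was 247 (95% exact interval 67.8 to 2052) in favour of hepatocytes. Tbx3 (0.187 and 0.193 against 23.1 and 49.3 CPM, difference -5.64) and the secreted inhibitor Notum (0.449 and 0.773 against 68.3 and 136 CPM, difference -6.46), both Wnt targets, were lower. The receptor-removing ligases Rnf43 (0.337 and 1.16 against 29.7 and 55.96 CPM, difference -5.13) and Znrf3 (2.69 and 3.19 against 17.5 and 25.4 CPM, difference -2.65) were lower too. For these targets hepatocyte replicate 2 was above hepatocyte replicate 1.

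Axin2 (2.58 and 3.04 against 11.1 and 24.2 CPM, difference -2.36) and Fzd7 (19.8 and 8.84 against 41.0 and 51.5 CPM, difference -1.75) were lower with TMM scaling but not called under every scaling. Wnt5a, a ligand of the noncanonical Wnt pathway, was lower, with 0.187 and 0.0483 against 3.05 and 6.30 CPM (difference -3.00), a call lost without hepatocyte replicate 2 (adjusted p = 0.0595). Sp5, a Wnt target, had no read in b-gal- cells and 32 in hepatocytes, which is at least 19.8-fold higher in hepatocytes against a floor of 3 reads over the group; it was not tested. The members that did not pass were Wnt4, Wnt11, Rspo1, Porcn, Fzd1, Fzd5, Fzd8, Lrp6, Lef1 and Tcf7l2. Fzd5 and Tcf7l2 passed without EpCAM-positive replicate 1 (adjusted p = 0.00429 and 0.0425) or 2 (0.00447 and 0.0435), and Fzd8 without hepatocyte replicate 1 (0.023). With the replicate block Tcf7l2 passed over 8 libraries (adjusted p = 0.0431), and Fzd5, Fzd8 and Wnt4 over the 4 compared (0.00331, 0.039 and 0.0101). The sign turned with total reads and on the deposited scale for Porcn, Fzd1, Fzd5 and Fzd8, and without b-gal- replicate 2 for Fzd1 and Lrp6 or hepatocyte replicate 2 for Porcn.

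Hgf was higher in b-gal- cells and the receptor genes Met, Egfr and Erbb3 were lower. Of 14 genes of the HGF and EGF receptor list, 5 were higher and 5 lower, shares near the 32.3% and 30.5% of all genes tested (median 0.93, and 0.99 with genes at 0 reads set at their bound). The count of 5 higher became 3 without b-gal- replicate 1, hepatocyte replicate 1 or hepatocyte replicate 2. Hgf, the hepatocyte growth factor, measured 137 and 106 CPM in the b-gal- libraries and 9.59 and 15.3 CPM in the hepatocyte libraries (log2 difference 3.25 ± 0.39 (SE), adjusted p = 3.49e-04). Its receptor gene Met measured 3.33 and 1.498 CPM in the b-gal- libraries and 234 and 224 CPM in the hepatocyte libraries (log2 difference -6.37 ± 0.46 (SE), adjusted p = 3.57e-05). No library of 1 group overlapped the other in either gene, as in most genes tested. Hgfac, the protease that activates HGF, had 0.935 and 1.40 against 585 and 682 CPM (difference -8.58). Egfr had 2.88 and 1.93 against 1275 and 657 CPM (difference -8.32) and Erbb3 had 2.80 and 1.06 against 265 and 273 CPM (difference -6.89), whereas Erbb2, the coreceptor without a ligand of its own, was higher at 31.4 and 50.8 against 1.52 and 2.42 CPM (difference 4.06). The EGF-like ligand Hbegf was higher at 60.6 and 76.1 against 3.27 and 3.23 CPM (difference 4.19).

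Btc, another EGF-like ligand, was lower: 2 reads over the b-gal- libraries against 242 in hepatocytes gave a ratio of 225 (95% exact interval 61.6 to 1868) in favour of hepatocytes. St14, an HGF-activating protease, had no read in hepatocytes and 53 in b-gal- cells, at least 9.51-fold higher against 3 reads over the group, and Spint1, an inhibitor of such proteases, had 5.68 and 1.01 against 0.152 and 0.162 CPM. Neither call held without b-gal- replicate 1 (adjusted p = 0.133 and 0.169), hepatocyte replicate 1 (0.145 and 0.126) or hepatocyte replicate 2 (0.141 and 0.121), and that of St14 also without b-gal- replicate 2 (0.118) or either b-gal+ library (0.0688 and 0.068). The Spint1 difference was 3.23 without b-gal- replicate 2. Egf (1.61 and 1.69 against 1.37 and 1.45 CPM), Tgfa (33.7 and 33.0 against 35.6 and 33.6 CPM), Areg (7.67 and 0.677 against 0 and 0 CPM) and Ereg (4.90 and 0.242 against 0.152 and 0 CPM) were not called, with adjusted p of 0.585, 0.88, 0.0912 and 0.178. Areg passed without EpCAM-positive replicate 2 (adjusted p = 0.044) and both Areg and Ereg without b-gal- replicate 2 (0.0332 and 0.0338) and with the replicate block over 8 libraries (0.0222 and 0.0449). The sign of Tgfa turned with total reads and on the deposited scale. The Notch list had 13 of 17 tested members higher and 1 lower (median 1.91). The ligand Dll4 (204 and 192 against 5.56 and 9.85 CPM, difference 4.65), the receptor Notch4 (258 and 327 against 7.16 and 13.6 CPM, difference 4.81) and the target Nrarp (53.2 and 38.9 against 3.12 and 2.91 CPM, difference 3.71) rose. Rfng, a fringe enzyme, was the member called lower (16.9 and 18.7 against 39.7 and 36.1 CPM, difference -1.07), with a sign that turned on total reads and the deposited scale.

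Genes of clotting factors were mostly lower in b-gal- cells, with exceptions such as F8. Of 30 coagulation and fibrinolysis genes, 19 were lower and 10 higher in b-gal- cells (median -7.77). The share higher was near the 32.3% of all genes tested, and the share lower was above their 30.5%. The fibrinogen gene Fga had 23.4 and 20.9 against 23724 and 14448 CPM (difference -9.68), plasminogen (Plg) had 11.3 and 18.3 against 8751 and 9157 CPM (difference -9.23) and F12 had 1.16 and 1.35 against 1020.0 and 1272 CPM (difference -9.34). The factor VIII gene F8 went the other way, at 1105 and 1239.9 CPM in the b-gal- libraries and 21.3 and 69.6 CPM in the hepatocyte libraries (log2 difference 4.90 ± 0.52 (SE), adjusted p = 2.01e-04). Its b-gal- libraries were both above 1000 CPM and hepatocyte replicate 2 was the higher of its pair, and the difference was 4.06 without hepatocyte replicate 1 and 5.75 without hepatocyte replicate 2. Tfpi, the tissue factor pathway inhibitor, had 331 and 419.8 against 8.53 and 18.4 CPM (difference 4.84), Procr, the protein C receptor, had 15.5 and 15.6 against 0.685 and 0.807 CPM (difference 3.69), and Pros1, protein S, had 431 and 468 against 181 and 138 CPM (difference 1.501).

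Several coagulation genes differed between the b-gal- libraries. F13a1, the factor XIII chain of macrophages, was higher at 90.1 and 7.64 against 1.22 and 0.0807 CPM, but the call was not kept without b-gal- replicate 1 (adjusted p = 0.191), hepatocyte replicate 1 (0.089) or hepatocyte replicate 2 (0.186). F10, the factor X gene, was lower at 179 and 13.9 against 1626 and 1469 CPM, not under every scaling, and the call did not hold without b-gal- replicate 2 (adjusted p = 0.135), hepatocyte replicate 1 (0.116) or hepatocyte replicate 2 (0.107). Without b-gal- replicate 1 the F10 difference was -6.75, and without b-gal- replicate 2 that of F13a1 was 6.50.

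Complement divided by component. Of 29 genes tested, 17 were lower and 8 higher (median -3.37). The share higher was near the 32.3% of all genes tested, and the share lower was above their 30.5%. The count of 8 higher became 5 without b-gal- replicate 1 and 4 without hepatocyte replicate 2. C3, the central component, had 386 and 95.7 against 45119 and 40062 CPM (difference -7.79, and -8.79 without b-gal- replicate 1 or -6.78 without b-gal- replicate 2). Cfb, factor B, had 52.1 and 33.7 against 4026 and 4019.5 CPM (difference -6.57) and the pore component C9 had 1.53 and 1.21 against 1708 and 826 CPM (difference -9.32). C1qb, a chain of C1q, which macrophages make, had 499 and 277 against 34.9 and 23.7 CPM (difference 3.67), and Cd55, which protects cells from complement, had 526 and 575 against 15.5 and 22.2 CPM (difference 4.85). C1qa (289 and 197 against 26.6 and 22.6 CPM) and C1qc (317 and 204 against 30.1 and 22.1 CPM) were higher as well, with calls lost without hepatocyte replicate 2 (adjusted p = 0.0589 and 0.0892) and, for C1qc, without b-gal- replicate 1 (0.068) or hepatocyte replicate 1 (0.0632).

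Of 17 scavenger and endocytic receptors, 10 were higher and 5 lower (median 2.56). The share lower was near the 30.5% of all genes tested, and the share higher was above their 32.3%. Mrc1, the mannose receptor, had 2401 and 2769.8 against 61.9 and 144 CPM (difference 4.77, and 4.16 without hepatocyte replicate 1 or 5.37 without hepatocyte replicate 2), and Cd36, a fatty acid and lipoprotein receptor, had 1182 and 961 against 89.0 and 140.5 CPM (difference 3.25). Asgr1, Asgr2, Scarb1 and Lrp1 were among the lower ones. The HDL receptor gene Scarb1 had 218 and 215 against 657 and 663 CPM (difference -1.61, not called under every scaling). Lrp1 had 1133 and 450.4 against 3476 and 3153 CPM, was not called under every scaling, and was no longer called without b-gal- replicate 2 (adjusted p = 0.0883), hepatocyte replicate 1 (0.0683) or hepatocyte replicate 2 (0.0568), its difference being -2.88 without b-gal- replicate 1.

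Metabolic programs of hepatocytes were lower almost without exception. All 21 bile acid genes were lower (median -8.60), as were 29 of 30 urea cycle and amino acid genes (-9.53), 17 of 18 genes of fatty acid oxidation and ketogenesis (-4.03) and 23 of 26 cytochrome P450 genes (-9.37). Abcb11, the bile salt export pump, measured 0.673 and 1.21 CPM in the b-gal- libraries and 1781 and 3269.6 CPM in the hepatocyte libraries (log2 difference -10.74 ± 0.62 (SE), adjusted p = 1.59e-05). Otc, of the urea cycle, had 0.748 and 0.483 against 1340.0 and 1065 CPM (difference -10.07). Levels of both genes in b-gal- cells were low, with 18 and 25 reads of Abcb11. Cyp2e1, the main enzyme that activates CCl4, had 1.83 and 3.87 against 4249.9 and 5877 CPM (difference -10.61).

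The exceptions were few. Oxct1, which lets cells use ketone bodies, was the 1 gene of fat oxidation and ketone metabolism called higher, at 79.7 and 55.7 against 8.83 and 5.98 CPM (difference 3.11). Among P450 genes, Cyp4b1 was higher at 639 and 699.9 CPM in the b-gal- libraries and 16.7 and 32.4 CPM in the hepatocyte libraries (log2 difference 4.82 ± 0.36 (SE), adjusted p = 4.21e-05), the b-gal- libraries being far above the hepatocyte libraries. Cyp1b1 (5.27 and 1.06 against 0.228 and 0.0807 CPM) was called higher too, and Cyp2s1 had no read in hepatocytes and 23 in b-gal- cells, at least 4.12-fold higher against 3 reads over the group. The calls of Cyp1b1 and Cyp2s1 did not hold without b-gal- replicate 1 (adjusted p = 0.155 and 0.186), hepatocyte replicate 1 (0.0975 and 0.0911) or hepatocyte replicate 2 (0.136 and 0.0864), and that of Cyp2s1 also without either b-gal+ library (0.0508 and 0.0521). Without b-gal- replicate 2 the Cyp1b1 difference was 3.15.

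Some isoenzymes of glucose metabolism went opposite ways. Of 25 genes of the list, 9 were higher, near the 32.3% of all genes tested. Another 13 were lower, against 30.5% of all genes (median -0.62). Hexokinase 1 (Hk1), an enzyme of the first step, had 144 and 128 against 5.02 and 8.48 CPM (difference 4.28). For pyruvate kinase, the liver form Pklr had 0.337 and 0.677 against 279.7 and 465 CPM (difference -8.51) and the other form Pkm had 297 and 179 against 11.04 and 9.29 CPM (difference 4.44). Pklr was high in both hepatocyte libraries and Pkm in both b-gal- libraries, without overlap. The gluconeogenic genes G6pc (0.636 and 1.30 against 1864 and 2624 CPM) and Fbp1 (0.935 and 1.35 against 2508 and 2158 CPM) were lower by 1545-fold and 1427-fold on the log2(CPM + 0.5) scale. Ldhb was higher (79.4 and 107 against 2.59 and 4.04 CPM, difference 4.63), and Ldha was lower (227 and 129 against 1020.5 and 672 CPM, difference -2.27), a call lost without hepatocyte replicate 1 (adjusted p = 0.0512) and not made under every scaling.

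All 22 oxidative phosphorylation genes were lower, within a narrow range from -3.34 to -1.88 (median -2.54), and all 22 were called under all 4 scalings. Atp5b, the catalytic chain of ATP synthase, measured 406 and 326 CPM in the b-gal- libraries and 2911 and 2686 CPM in the hepatocyte libraries (log2 difference -2.94 ± 0.27 (SE), adjusted p = 1.01e-04). Sdhb, of succinate dehydrogenase, measured 52.5 and 48.2 CPM in the b-gal- libraries and 453 and 393 CPM in the hepatocyte libraries (log2 difference -3.06 ± 0.17 (SE), adjusted p = 1.46e-05). Cytosolic ribosomal protein genes gave 0 calls among 24 with limma and TMM scaling (median 0.02), 0 at an unadjusted p under 0.05, and 0 with edgeR or DESeq2 and 1 with the replicate block over the 4 libraries compared, but 17 were higher by total reads and 19 on the deposited scale.

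Zonated genes were lower for both ends of the lobule, with 12 of 14 pericentral genes (median -5.89) and 12 of 13 periportal genes (median -9.98). Cyp1a2, pericentral, had 0.299 and 0.677 against 372 and 938 CPM (difference -9.25, and -9.92 without hepatocyte replicate 1 or -8.58 without hepatocyte replicate 2). Cyp2f2, periportal, had 0.823 and 2.46 against 2282 and 3535 CPM (difference -10.49). Glul, glutamine synthetase, a marker of hepatocytes next to the central vein, was not called, at 554 and 399.9 CPM in the b-gal- libraries and 295 and 1203 CPM in the hepatocyte libraries (adjusted p = 0.653). The libraries of the 2 groups overlapped, and the sign turned with total reads, on the deposited scale and without hepatocyte replicate 2, while without hepatocyte replicate 1 it passed as lower (adjusted p = 0.0314). Ahr, the receptor for dioxins, was the 1 pericentral gene called higher, at 203 and 365 against 88.7 and 87.2 CPM (difference 1.63).

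**Figure D4:**
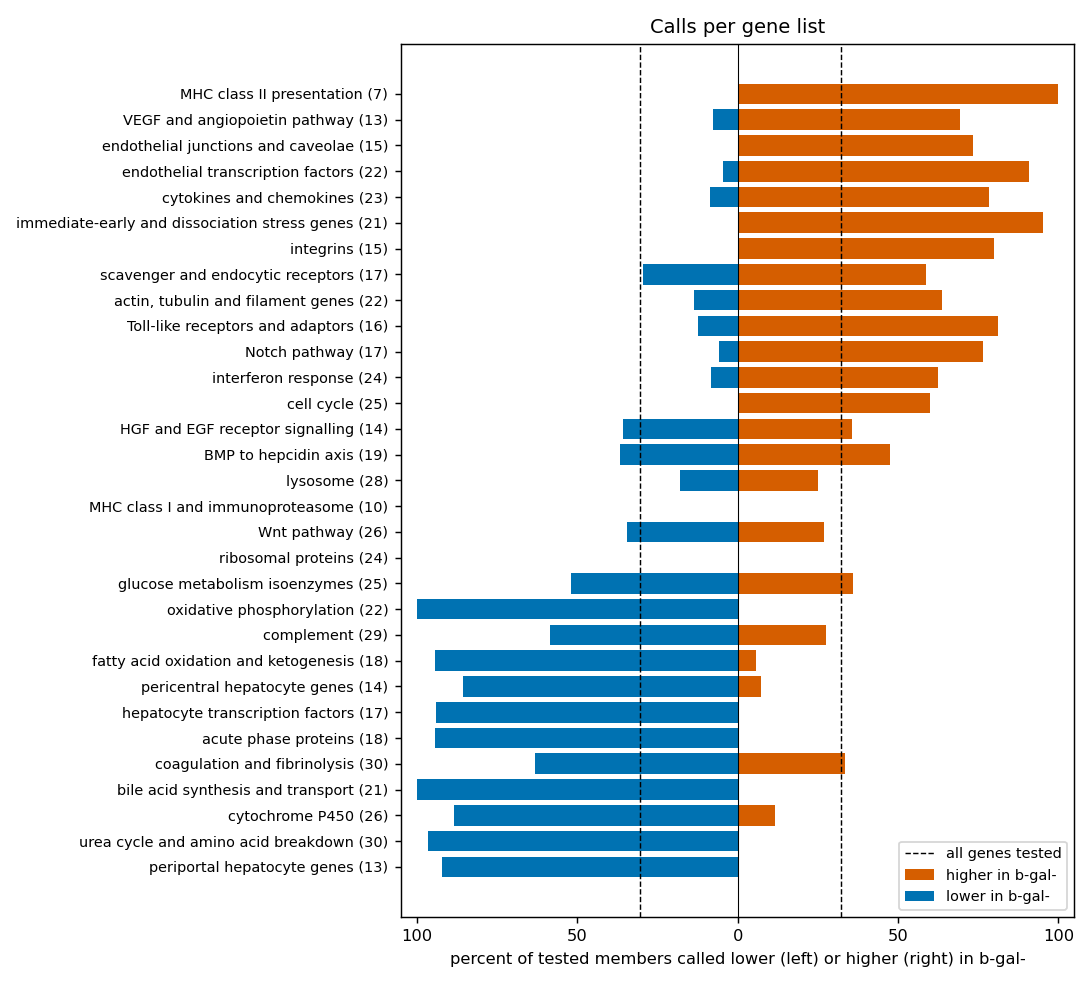
Percent of the tested members of each gene list (number in brackets) that were called lower (blue, left) or higher (orange, right) in b-gal- cells, with dashed lines at the shares of all genes tested, 30.5% lower and 32.3% higher. Bile acid and oxidative phosphorylation genes reach 100% on the left, MHC class II genes reach 100% on the right, and the MHC class I and ribosomal protein lists have no bar.

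Antigen presentation differed by class. All 7 MHC class II genes were higher (median 5.28). H2-Eb1 measured 451 and 422 CPM in the b-gal- libraries and 6.39 and 9.04 CPM in the hepatocyte libraries (log2 difference 5.75 ± 0.59 (SE), adjusted p = 1.66e-04). Ciita, the master regulator of class II, had 75.4 and 69.2 against 0.685 and 1.29 CPM (difference 5.64) and the invariant chain gene Cd74 had 1667 and 1538 against 36.6 and 46.5 CPM (difference 5.26). In these genes the b-gal- libraries were alike and without overlap with hepatocytes. None of 10 class I and immunoproteasome genes was called with limma and TMM scaling (median 0.16). At an unadjusted p under 0.05 there were 2, edgeR called 0 and DESeq2 called 2, both lower. By total reads 7 were higher and on the deposited scale 8. With the replicate block 2 were lower over 8 libraries, and over the 4 compared 2 were lower and 4 higher, against 3 higher in the 4 libraries without it or without either EpCAM-positive library. H2-K1, a class I heavy chain, had 894 and 1225 against 1855 and 1922 CPM (difference -0.85, adjusted p = 0.0639), with a sign that turned on total reads and the deposited scale. With the replicate block its adjusted p was 0.0455 over 8 libraries.

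Genes of innate sensing and its products were mostly higher. Toll-like receptors and adaptors were higher for 13 of 16 genes and lower for 2, Tlr5 and Ticam1 (median 2.05). Over all genes tested the shares were 32.3% higher and 30.5% lower. Tlr4, the receptor for endotoxin, had 52.0 and 34.8 against 1.90 and 2.18 CPM (difference 4.08). Tlr5, the flagellin receptor, had 1.38 and 0.29 against 11.9 and 15.3 CPM (difference -3.52, and -4.14 without b-gal- replicate 1 or -2.89 without b-gal- replicate 2), and the adaptor Ticam1 had 19.3 and 19.7 against 35.3 and 33.5 CPM, with a sign that turned under total reads and the deposited scale. Of 24 interferon response genes, 15 were higher and 2, Stat2 and Bst2, were lower (median 1.68). Cxcl10 had 107 and 155 against 3.12 and 4.12 CPM (difference 4.98) and Oasl2 had 69.3 and 89.9 against 3.58 and 5.57 CPM (difference 4.00). Stat2 (98.9 and 131 against 163 and 189.8 CPM) and Bst2 (104 and 145 against 256 and 201 CPM) turned sign with total reads and the deposited scale, and their calls did not hold without b-gal- replicate 1 (adjusted p = 0.238 and 0.103) or hepatocyte replicate 1 (0.0848 and 0.103), and that of Stat2 also without hepatocyte replicate 2 (0.186) or either EpCAM-positive library (0.0548 and 0.0504).

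Among 23 cytokines and chemokines, 18 were higher and 2 lower (median 4.19), against 32.3% and 30.5% of all genes tested. Il1a measured 305 and 255 CPM in the b-gal- libraries and 7.61 and 8.80 CPM in the hepatocyte libraries (log2 difference 5.01 ± 0.30 (SE), adjusted p = 1.9e-05). Tgfb1, the fibrogenic cytokine, measured 280.0 and 223 CPM in the b-gal- libraries and 9.90 and 10.8 CPM in the hepatocyte libraries (log2 difference 4.53 ± 0.27 (SE), adjusted p = 1.8e-05), and the b-gal- libraries were alike in both. Il1b had 466 and 172 against 6.62 and 4.68 CPM (difference 5.54, and 4.83 without b-gal- replicate 1 or 6.26 without b-gal- replicate 2). The alarmin Il33 had 39.8 and 54.7 against 5.79 and 5.09 CPM (difference 2.99). Il6 had 3 reads over both hepatocyte libraries and 886 in b-gal- cells, a ratio of 159 (95% exact interval 54.2 to 772), and its call was lost without hepatocyte replicate 1 or hepatocyte replicate 2 (adjusted p = 0.0514 and 0.0562), with differences of 3.17 and 5.59 without b-gal- replicates 1 and 2. The lower members were Cxcl12 (109.9 and 116 against 706 and 636 CPM, difference -2.57, not called under every scaling) and Il18 (9.16 and 5.12 against 15.3 and 13.6 CPM). The sign of Il18 turned with total reads and on the deposited scale, and its call did not hold without b-gal- replicate 2 (adjusted p = 0.113), hepatocyte replicate 1 (0.0978) or hepatocyte replicate 2 (0.0626).

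Adhesion and shape genes followed, to be read against 32.3% of all genes tested higher and 30.5% lower. Of 15 integrins 12 were higher and none lower, except 1 without b-gal- replicate 1 (median 2.82). Itga9 had 786 and 771 against 28.9 and 50.0 CPM (difference 4.34). Of 22 actin, tubulin and filament genes 14 were higher and 3 lower (median 2.37). Vimentin (Vim) had 746 and 384 against 30.0 and 19.9 CPM (difference 4.42) and moesin (Msn) had 948 and 823 against 30.8 and 45.7 CPM (difference 4.54). The lower members were Tubb2a (18.1 and 10.2 against 99.8 and 128 CPM, difference -3.01) and the 2 keratins of hepatocytes, Krt8 (0.524 and 1.93 against 187 and 150.1 CPM, difference -6.74) and Krt18 (0.823 and 2.66 against 411 and 209.8 CPM, difference -7.17). The keratin differences were -6.11 and -6.54 without b-gal- replicate 1 and -7.36 and -7.80 without b-gal- replicate 2. Actb was not called (1377 and 968 against 649 and 494 CPM, adjusted p = 0.0651) unless an EpCAM-positive library was left out (0.0372 and 0.0395) or the replicate block was fitted (0.0222 over 8 libraries).

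Of 28 lysosomal genes 7 were higher and 5 lower (median 0.26), both shares below the 32.3% and 30.5% of all genes tested. By total reads 18 were higher. The count of 7 higher became 3 without b-gal- replicate 1 or hepatocyte replicate 1. The count of 5 lower became 1 without b-gal- replicate 2 or hepatocyte replicate 2, 3 without hepatocyte replicate 1 or either b-gal+ library, and 9 and 8 with the replicate block over 8 and 4 libraries. Lgmn, legumain, had 1098 and 936 against 106 and 87.7 CPM (difference 3.39) and Ctss, the cathepsin of antigen presenting cells, had 810.4 and 308 against 47.3 and 22.6 CPM (difference 3.91, and 3.21 without b-gal- replicate 1 or 4.61 without b-gal- replicate 2). The 5 lower were Ctsh, Lamp2, Npc1, Lipa and Neu1, none called under all scalings. Npc1, a cholesterol transporter, had 86.5 and 66.5 against 234 and 317 CPM (difference -1.84). The others lost their calls in leave-one-out fits. Without hepatocyte replicate 2 the adjusted p was 0.0625 for Ctsh, 0.138 for Lamp2, 0.112 for Lipa and 0.126 for Neu1. Without b-gal- replicate 2 it was 0.056, 0.138, 0.0998 and 0.142 in the same order. Without hepatocyte replicate 1 it was 0.0545 for Ctsh and 0.0545 for Lamp2, and without b-gal- replicate 1 0.129 for Lamp2 and 0.0744 for Neu1. Lamp2 and Neu1 also lost their calls without b-gal+ replicate 1 (0.0561 and 0.0515) or 2 (0.0569 and 0.0517), and the Ctsh difference was -2.79 without b-gal- replicate 1. The sign of Lamp2 and Neu1 turned with total reads and on the deposited scale.

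Cell cycle genes were higher for 15 of 25 members (median 1.57), against 32.3% of all genes tested. The count was 6 without b-gal- replicate 1 or hepatocyte replicate 2 and 9 without hepatocyte replicate 1. Mcm3, of the replicative helicase, had 63.1 and 74.2 against 7.16 and 8.48 CPM (difference 3.06), and Mcm4 had 29.6 and 24.7 against 5.86 and 4.44 CPM (difference 2.30). Mki67, which marks dividing cells, had 71.1 and 33.4 against 8.07 and 3.31 CPM, and Top2a had 36.9 and 19.4 against 6.09 and 2.58 CPM. Neither call held without b-gal- replicate 1 (adjusted p = 0.0542 and 0.0921) or hepatocyte replicate 2 (0.0761 and 0.119). Ccnd1, cyclin D1, was higher at 189 and 216 against 100.2 and 96.2 CPM (difference 1.04).

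Immediate-early and dissociation stress genes were higher for 20 of 21 members (median 3.80), against 32.3% of all genes. Fos, of the AP-1 factor, measured 1913 and 1876 CPM in the b-gal- libraries and 78.3 and 20.7 CPM in the hepatocyte libraries (log2 difference 5.54 ± 0.59 (SE), adjusted p = 1.93e-04). Its hepatocyte libraries differed from each other, and the difference was 6.48 without hepatocyte replicate 1 and 4.59 without hepatocyte replicate 2. Jun had 1275 and 1374 against 239 and 111 CPM (difference 3.02) and Dusp1, a phosphatase that stops MAP kinases, had 1350.0 and 1424 against 121 and 149 CPM (difference 3.36). Egr1 had 1148 and 1284 against 351 and 227 CPM (difference 2.10), a call lost without hepatocyte replicate 2 (adjusted p = 0.0535). Sorting and staining applied to b-gal- cells only, so the handling and the cell type cannot be told apart for these genes, Fosb, Klf4, Hspa1a and Atf3 among them.

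Acute phase genes were lower for 17 of 18 members (median -7.48), and 15 of the 17 were called under all 4 scalings. They differed between the hepatocyte libraries, with a summed level of 87922 CPM in replicate 1 and 35507 CPM in replicate 2. Orm1, orosomucoid, had 2.39 and 1.40 against 2922 and 949.5 CPM (difference -9.47), and Hpx, the heme carrier hemopexin, had 23.7 and 18.4 against 22336 and 8928 CPM (difference -9.37). Without hepatocyte replicate 1 these were -8.66 and -8.71, and without hepatocyte replicate 2 -10.28 and -10.03. Saa1 had 6.10 and 0.145 against 7026 and 99.8 CPM, and Saa2, a close copy whose reads the counting may split, had 3.55 and 0.338 against 5824 and 31.2 CPM. Both calls were lost without hepatocyte replicate 1 (difference -5.60, adjusted p = 0.0738 for Saa1, and -4.11, 0.126 for Saa2) or b-gal- replicate 2 (0.0682 and 0.116). Their differences were -10.35 and -9.00 without b-gal- replicate 1 and -11.73 and -11.63 without hepatocyte replicate 2. Saa3, the form made outside hepatocytes, was not called at 554 and 62.9 against 17.7 and 7.27 CPM (adjusted p = 0.0712), but passed as higher without b-gal- replicate 2 (0.0477) or either b-gal+ library (0.0468 and 0.0461) and with the replicate block (0.00158 over 8 libraries).

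The 2 libraries of each group agreed across all genes, with Spearman's rho of 0.979 in both groups, where genes are not independent replicates. Over all genes tested, 48.5% were above replicate 2 in b-gal- replicate 1 and 50.9% in hepatocyte replicate 1, with median log2 differences of -0.0041 and 0.011. Some lists lay apart from that. In b-gal- replicate 1, 15 of 16 macrophage markers, 11 of 11 monocyte markers and 10 of 10 neutrophil markers were above replicate 2, and the neutrophil sum was 9.99 times as high. S100a9, an abundant neutrophil protein, had 153 and 8.17 CPM in b-gal- replicates 1 and 2, and Spp1, osteopontin, had 1230.0 and 77.6 CPM. Neither was called against hepatocytes in the reported fit (adjusted p = 0.0981 and 0.164). S100a9 was called without b-gal- replicate 2. With the replicate block over 8 libraries S100a9 was called (adjusted p = 0.00168) and Spp1 was not (0.0819). Over the 4 compared, where the block leaves few residual degrees of freedom, Spp1 was called (5.59e-06). Of 18 sinusoidal endothelial markers 15 were lower in b-gal- replicate 1, as were 13 of 13 T and NK cell markers, and the summed endothelial level was 0.827 times that of replicate 2. Some of these differences went with the replicate number in other groups too. Neutrophil markers were above replicate 2 for 8 of 10 members in hepatocyte replicate 1 and 9 of 10 in b-gal+ replicate 1, and monocyte markers for 9 and 10 of 11, while 17 of 18 sinusoidal endothelial markers were above replicate 2 in b-gal+ replicate 1.

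In hepatocyte replicate 1, 17 of 18 acute phase genes were above replicate 2 (median log2 difference 1.38), as were 16 in b-gal- replicate 1 and 15 in b-gal+ replicate 1, while 13 of 14 pericentral genes were below (median -1.08). Cyp4a14, a target of PPARα, had 24.97 and 491 CPM in hepatocyte replicates 1 and 2 and 0.0374 and 0.193 CPM in b-gal- cells (difference -7.52, and -9.65 without hepatocyte replicate 1 or -5.38 without hepatocyte replicate 2). Oat, pericentral ornithine aminotransferase, had 681 and 1696 CPM in the hepatocyte libraries and 70.5 and 54.8 CPM in the b-gal- libraries (difference -4.10, and -4.76 without hepatocyte replicate 1 or -3.44 without hepatocyte replicate 2). Of 18 sinusoidal endothelial markers, 17 were lower in hepatocyte replicate 1 (median -0.998). These differences are between pools of 2 mice and had no test.

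**Figure D5:**
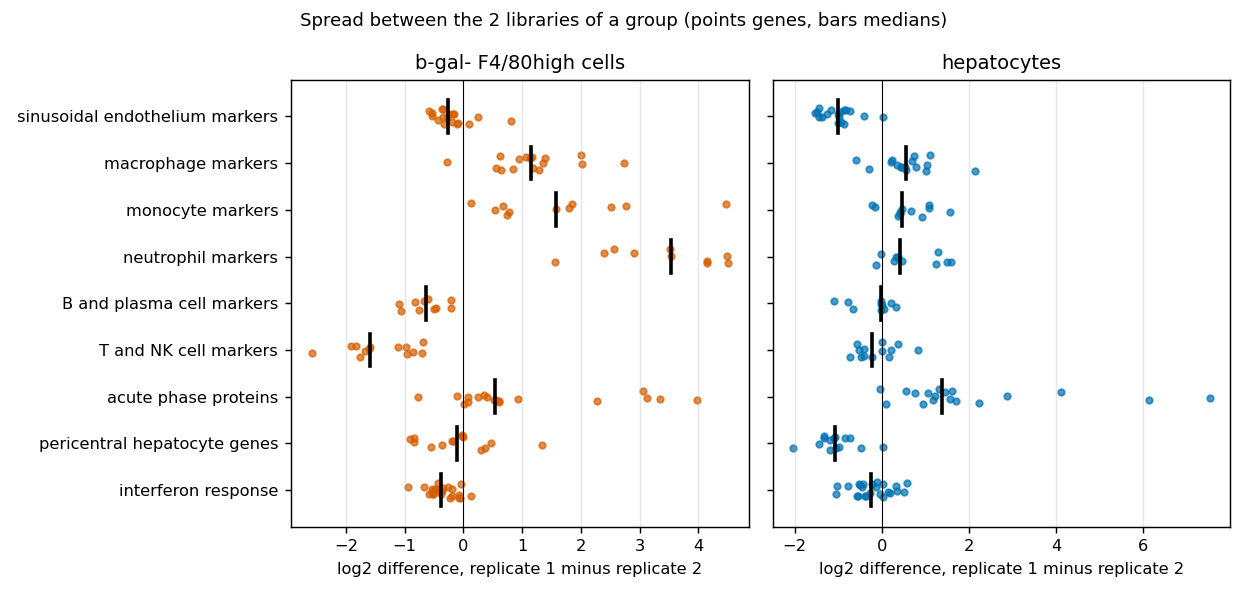
Log2 difference of replicate 1 minus replicate 2, in log2(CPM + 0.5), for the tested members of 9 gene lists in b-gal- cells (left) and hepatocytes (right), with points for genes and black bars for list medians. In b-gal- cells the neutrophil median lies at 3.53 and the macrophage median at 1.16, and in hepatocytes the acute phase median lies at 1.38 and the pericentral median at -1.08.

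The b-gal+ F4/80high libraries, sorted in the same way, give a reference for the b-gal- gate. Of 14404 genes, 12.5% were higher and 11% lower in b-gal- than in b-gal+ cells. All 10 Kupffer cell markers were lower than in b-gal+ cells and 17 of 18 sinusoidal endothelial markers were higher. Clec4f had 8608 and 10284 CPM in the b-gal+ libraries against 425 and 559 CPM in the b-gal- libraries (log2 difference of b-gal- minus b-gal+ -4.27, adjusted p = 0.00993), and Kdr had 368 and 239 CPM against 2999 and 3379.6 CPM (difference 3.42, adjusted p = 0.00332). Adgre1 had 1747 and 1367 CPM in b-gal+ cells against 303 and 132 CPM, which was not called (difference -2.95, adjusted p = 0.0691). Both comparisons use the same b-gal- libraries, so their values are not independent.

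The reporter and the enzyme behind the gate were also measured. The LacZ row had 1 read over both b-gal- libraries and 15 over both hepatocyte libraries, or 0.0374 and 0 against 0.0761 and 1.13 CPM, and was not called (adjusted p = 0.162). The ratio of reads per scaled library was 27.9 (95% exact interval 4.29 to 1174) in favour of hepatocytes, nearly all from hepatocyte replicate 2, and without hepatocyte replicate 1 the adjusted p was 0.0201. Glb1, the mouse gene of lysosomal β-galactosidase, had 66.7 and 49.1 against 32.3 and 32.1 CPM (difference 0.82, adjusted p = 0.0382). It did not pass after removal of b-gal- replicate 1 (adjusted p = 0.196), hepatocyte replicate 1 (0.133) or hepatocyte replicate 2 (0.134). Trem2, a lipid receptor of macrophages in injured liver, had 39.9 and 4.49 against 1.90 and 0.242 CPM (adjusted p = 0.0441), a call that fell away without b-gal- replicate 1 (0.235), hepatocyte replicate 1 (0.0769) or hepatocyte replicate 2 (0.233) or either b-gal+ library (0.0714 and 0.0706). Without b-gal- replicate 2 the Trem2 difference was 4.92.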

How the data were processed

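Gene counts of 8 mouse liver libraries were used. The authors counted reads with HTSeq on GRCm38.p4 (mm10), per the submitters' processing notes. The aligner, annotation and scaling used for the files are not given in the sources used here. Values as deposited are counts in 1 hepatocyte library and counts multiplied by 1 constant per library in the others. Dividing by that constant gave whole reads for all values within 0.01 reads, and these recovered read counts were tested. The 14 rows with a number in place of a symbol were left out, leaving 21968 symbols.

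Reads were scaled with TMM (edgeR 4.0.16), and log2(CPM + 0.5) was fitted with limma 3.58.1 (trend) over the 8 libraries, with 4 residual degrees of freedom. P-values were adjusted by the Benjamini-Hochberg method over 14404 genes that passed edgeR's filter on low counts. The script was tested on simulated data. Groups came from the sample labels. The labels number the replicates 1 and 2 in each group and do not say what a number shares. Same-numbered libraries deviated together, with correlations of 0.1772 to 0.4942 over the 6 pairs of groups and 0.3136 between b-gal- cells and hepatocytes. Fits with the replicate number as a block are therefore given where they changed a call. Over the 4 libraries compared, that block leaves fewer than the 2 residual degrees of freedom of the fit without it. Alternatives were other scalings, pseudocounts and filters, edgeR's quasi-likelihood test, DESeq2 1.42.0, fits of only the 4 libraries compared, a replicate block and leaving out each library. Intervals and floors (3 reads) cover counting error only, and shared reads of close gene copies make such genes uncertain.

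The comparison and the 45 gene lists were chosen with earlier results of these data known. Genes named were the 10 most raised and the 10 most lowered called genes, among those with a mean of at least 20 CPM, no overlap between the groups' libraries and no predicted gene name; up to 6 called members per list with the largest differences and a mean of at least 10 CPM; all members of the Wnt, BMP, HGF and EGF, and VEGF lists; and the checks (Kdr, Stab2, Ccr2, Alb, Adgre1, Glb1, Lgr5, LacZ, Trem2). Other genes, chosen after their values were seen, are named beside them as list examples. Promoters and their coordinates are from RefSeq on GRCm38.p6. Gene lengths are from GENCODE M21. Some genes that the naming rule covers are not reported here.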

Additional observations from a re-analysis of the deposited data

Results flagged for a closer look

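Rows that carry a number in place of a gene symbol were left out of the comparison, and they hold reads in the 4 libraries. Their share was 0.167% in b-gal- replicate 1 and 0.164% in b-gal- replicate 2, against 0.0551% in hepatocyte replicate 1 and 0.0514% in hepatocyte replicate 2. No gene was assigned to these 14 rows.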

How the results depend on the processing

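Scaling moved the counts most. With total reads in place of TMM factors 8341 genes were higher and 2239 lower, and on the deposited scale 8567 and 2179, against 4647 and 4396. Of the 9043 calls over all genes, 310 became calls in the opposite direction with total reads and 412 on the deposited scale. The cause was not tested. Leaving out 1 library gave 3675 to 5145 genes higher and 3589 to 4705 lower. With pseudocounts of 0.1 and 2, no filter, a filter at 5 CPM, DESeq2 size factors, edgeR, DESeq2 and only the 4 libraries compared, both counts stayed within 1.5 times those of the reported fit.

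Among the 362 tested genes that the naming rule or a later choice picked out, these 16 differences, negative with TMM, turned positive with total reads and on the deposited scale, in log2 units: Acvr2a (0.94 and 1.01), Bst2 (0.32 and 0.38), Fzd1 (0.82 and 0.88), Fzd5 (0.13 and 0.20), Fzd8 (0.56 and 0.62), Glul (0.86 and 0.93), H2-K1 (0.35 and 0.42), Il18 (0.12 and 0.18), Lamp2 (0.45 and 0.52), Neu1 (0.68 and 0.74), Porcn (0.95 and 1.00), Rfng (0.11 and 0.17), Smad5 (1.14 and 1.21), Stat2 (0.58 and 0.64), Tgfa (1.13 and 1.19) and Ticam1 (0.37 and 0.44). Over the fits that each left out 1 library, 6 differences of these 362 took both signs: Acvr2a from -0.51 to 0.024 (the highest without b-gal- replicate 2), Fzd1 from -0.79 to 0.12 (without b-gal- replicate 2), Glul from -1.35 to 0.67 (without hepatocyte replicate 2), Porcn from -0.71 to 0.41 (without hepatocyte replicate 2), Smad5 from -0.17 to 0.070 (without hepatocyte replicate 2, and 0.0095 without b-gal- replicate 1) and Lrp6 from -0.035 (without b-gal- replicate 2) to 0.56. Of 327 called genes that the naming rule or a later choice picked out, 269 kept their call in each leave-one-out fit. A fit without 1 library of a group takes the lone library to vary like the other groups.

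With the replicate block 4983 genes were higher and 4623 lower over 8 libraries, and 5261 and 4775 over the 4 compared. Of the 362 genes, 14 became called with the block over 8 libraries and 19 over 4, and none of those fitted lost its call. With 2 libraries a group, a gene at under 3 reads (0.122 to 0.177 CPM before TMM scaling) was not told from absent. Many member counts that moved by over 1.5 times without a library or with the block are given beside the lists. Moves of some small counts are not given. Fitting only the 4 libraries compared gave 5 neutrophil and 9 stellate cell and fibroblast markers higher, against 3 and 2, and DESeq2 gave 8 and 4. On the deposited scale 23 interferon response genes were higher, against 15, and 18 lysosomal genes, against 7. By total reads 3 scavenger receptors were lower, against 5.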
